A study of Mus musculus with 23 samples.

Results

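The genes described here are 10 genes of receptors that are best known from macrophages, dendritic cells and other myeloid cells: Adgre1, Nfam1, Itgax, Itgam, Csf1r, Cd14, Mrc1, Marco, Cd209a and Clec9a. They were measured in medullary thymic epithelial cells (mTEC) and were taken by symbol, after Adgre1 had been seen to be lower and Nfam1 higher in AireKO mTEChi. All 10 symbols matched an identifier among the 53402 genes of the count table. The study set Aire knockout (AireKO) against wild-type (WT) C57BL/6 mice by bulk RNA sequencing of sorted cells. Cells were DAPI-, CD45-, EpCAM+ and Ly51-, and were gated as high (mTEChi) or low (mTEClo) for MHC class II. There were 4 libraries of AireKO mTEChi, 7 of WT mTEChi, 4 of AireKO mTEClo and 8 of WT mTEClo. In each gate, the AireKO libraries were all male, with 2 of 5 weeks and 2 of 6 weeks of age. The WT mTEChi libraries were male in 5 cases and female in 2, with 2 of 4 weeks and 5 of 5 weeks. The WT mTEClo libraries were male in 5 cases and female in 3, with 5 of 4 weeks and 3 of 5 weeks. The labels describe neither the knockout allele nor whether libraries came from separate animals, so p-values measure the spread between libraries, which may be technical.

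Medullary thymic epithelial cells present peptides of genes that are otherwise restricted to peripheral tissues, and Aire is the nuclear regulator that many of those genes depend on. Receptors of myeloid cells bind growth factors, microbial products or dead cells, and signal through their own domains or through adaptor proteins with an activation motif (ITAM). Adgre1 (F4/80), Itgam (CD11b) and Itgax (CD11c) are also the surface markers by which mouse macrophages and dendritic cells are sorted. The CD45- gate is meant to leave those cells out.

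Library totals ran from 2528049 to 3106026 counts in AireKO mTEChi, from 1602125 to 3231079 in WT mTEChi, from 1639231 to 3938588 in AireKO mTEClo and from 1628778 to 3883437 in WT mTEClo. Levels are counts scaled by normalised library size (CPM). Aire averaged 28.4 ± 11.2 CPM in AireKO mTEChi and 816 ± 57.6 CPM in WT mTEChi (SD, n = 4 and 7), and 2.75 ± 3.55 CPM in AireKO mTEClo against 68.6 ± 33.3 CPM in WT mTEClo (SD, n = 4 and 8). Epcam lay between 196 and 318 CPM in all 23 libraries. Ptprc, the gene of CD45, was at 5.27 to 6.72 CPM in AireKO mTEChi, 9.55 to 36.2 CPM in WT mTEChi, 4.36 to 16.9 CPM in AireKO mTEClo and 13.5 to 25.6 CPM in WT mTEClo. In 6 libraries, the 4 of AireKO mTEChi and replicates 3 and 4 of AireKO mTEClo, the mitochondrial ribosomal RNA genes were at 0, while the other 17 libraries held 2863 to 3879 such counts. None of the myeloid receptor genes was among the 12 genes at 0 in those 6 libraries and counted in each of the 17, nor among the 8 with the opposite pattern. In mTEChi this split and the genotype cannot be told apart, and in AireKO mTEClo the split went along with age and depth.

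Of the 10 genes, 7 had a promoter in the RefSeq table (GRCm38.p6). The 250 bases before the start are shown for Nfam1, which was higher in both AireKO gates, for Itgam, which was lower in both, and for Marco. Capitals mark GAGGAA, the core of the site that the myeloid regulator PU.1 binds, or its reverse complement.
Nfam1, chr15:83033398-83033647, minus strand: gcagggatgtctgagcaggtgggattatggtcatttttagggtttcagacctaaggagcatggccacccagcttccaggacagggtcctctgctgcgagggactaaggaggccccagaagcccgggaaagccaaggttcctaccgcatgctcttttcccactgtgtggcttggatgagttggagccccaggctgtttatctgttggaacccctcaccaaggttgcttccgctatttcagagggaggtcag
Itgam, chr7:128062390-128062639, plus strand: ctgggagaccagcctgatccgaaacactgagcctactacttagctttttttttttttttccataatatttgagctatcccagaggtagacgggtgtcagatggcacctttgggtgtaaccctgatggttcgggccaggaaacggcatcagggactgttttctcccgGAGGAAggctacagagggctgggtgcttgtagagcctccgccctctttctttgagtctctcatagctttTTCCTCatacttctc
Marco, chr1:120505025-120505274, minus strand: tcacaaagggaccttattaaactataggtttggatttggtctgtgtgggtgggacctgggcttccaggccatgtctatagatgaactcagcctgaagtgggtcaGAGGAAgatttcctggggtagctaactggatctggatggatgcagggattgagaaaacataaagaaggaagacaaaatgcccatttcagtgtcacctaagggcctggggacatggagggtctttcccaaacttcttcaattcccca
GAGGAA was found on either strand in 3 of the 7 promoters (Itgam, Mrc1 and Marco), and in 23.3% of all 32851 promoters cut to the same length. TATAAA, searched likewise, was found in 2 of the 7 (Cd209a and Clec9a) and in 12.4% of all promoters, and no promoter of the 7 held both. The median number of CG dinucleotides was 3 in the 7 promoters and 6 over all of them. These matches describe the letters in the window only.

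Adgre1 (ENSMUSG00000004730, chr17:57358691-57483527, plus strand, GRCm38), an adhesion G protein-coupled receptor known as F4/80, was at 0.857, 1.98, 0.666 and 0 CPM in AireKO mTEChi, against 32.2, 35.8 and 48.1 CPM (lowest, median and highest) in WT mTEChi. Every WT mTEChi library lay above every AireKO mTEChi library. The means were 0.874 ± 0.821 CPM from 9 counts in all and 37.1 ± 5.75 CPM from 682 counts (SD, n = 4 and 7), a log2 change of -5.33 ± 0.49 (SE). Because the genes were chosen on the contrast of the genotypes in mTEChi, values of that contrast are given as a description, with no test. Fewer cells of a type and less RNA per cell cannot be told apart in such bulk libraries. In mTEClo Adgre1 stood at 1.64, 0, 0.900 and 0 CPM with the knockout, against 0, 0.438 and 3.28 CPM (lowest, median and highest) in WT. The highest AireKO mTEChi library, at 1.98 CPM, lay above the AireKO mTEClo libraries and below WT mTEClo replicate 8, which held the 3.28 CPM.

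Ptprc moved with the genotype in mTEChi as well. It was lower in AireKO mTEChi, by 1.91 ± 0.35 on the log2 scale (SE, edgeR adjusted p = 6.7e-05). Within WT mTEChi, replicate 1 had the highest Ptprc level, 36.2 CPM, and 48.1 CPM of Adgre1, and replicate 7 had the lowest Ptprc level, 9.55 CPM, and 41.0 CPM of Adgre1. WT mTEClo libraries held a median of 16.6 CPM of Ptprc, beside 25.0 CPM in WT mTEChi, while their Adgre1 medians were 0.438 and 35.8 CPM. The part of CD45+ cells in the Adgre1 values was not tested.

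Nfam1 (ENSMUSG00000058099, chr15:82992973-83033306, minus strand), a receptor whose ITAM activates NFAT in B cells and myeloid cells, went the other way. It was at 58.2, 74.3, 53.2 and 52.7 CPM in AireKO mTEChi, against 4.19, 7.09 and 9.33 CPM (lowest, median and highest) in WT mTEChi. The 4 AireKO values lay far above all 7 WT values. The means were 59.6 ± 10.1 and 6.87 ± 1.80 CPM from 614 and 130 counts (SD, n = 4 and 7), a log2 change of 3.09 ± 0.26 (SE). In mTEClo the levels were low in both genotypes, at 6.00, 2.49, 3.0 and 0.491 CPM in AireKO and at 0.249, 0.645 and 1.49 CPM (lowest, median and highest) in WT. Of the 4 AireKO mTEClo libraries 3 lay above the WT range and replicate 4 lay inside it.

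**Figure D1:**
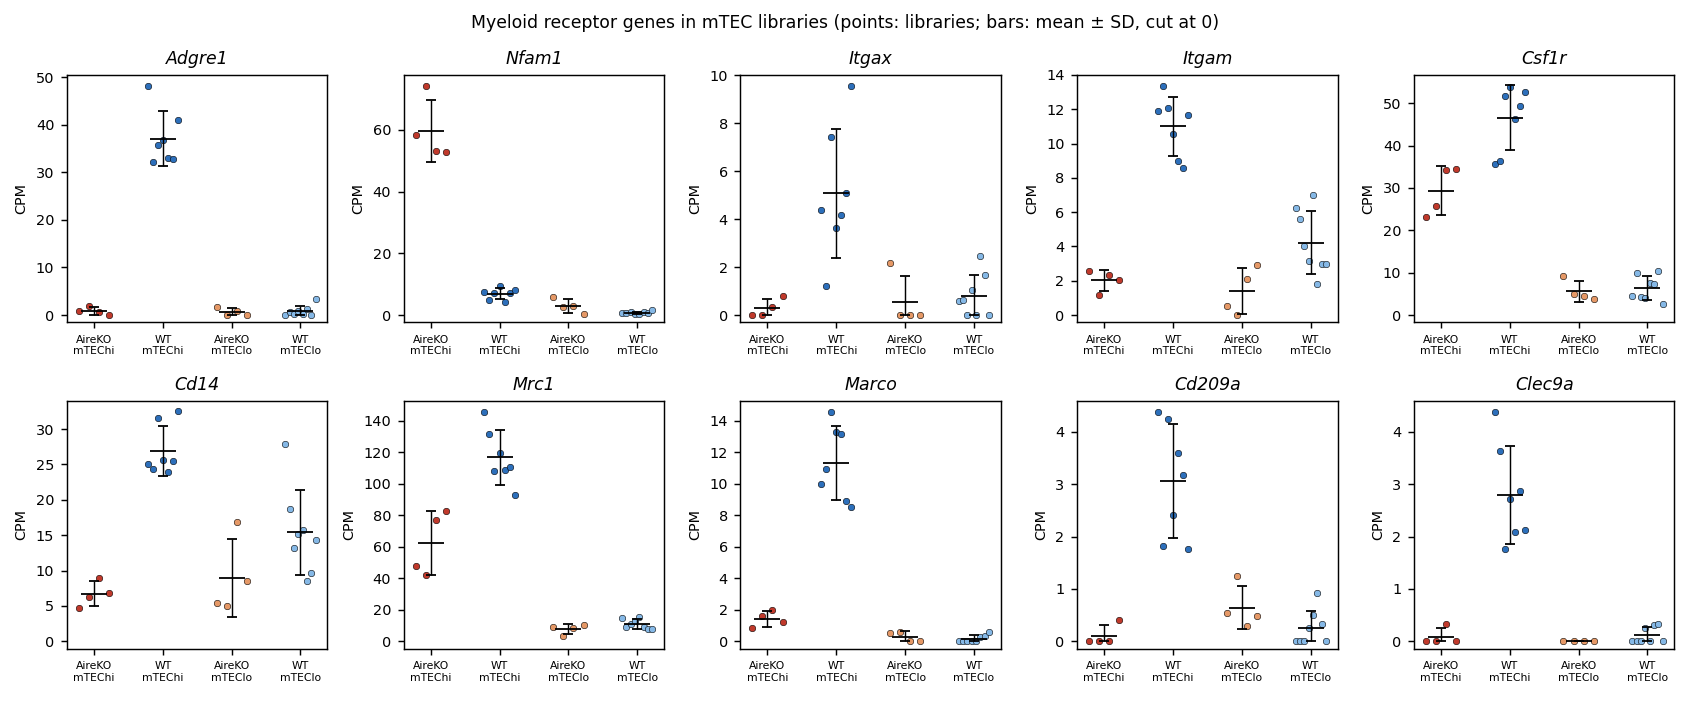
Levels in CPM (y axis, linear) of the 10 myeloid receptor genes in each library of the 4 groups (x axis), with the mean and SD as bars, cut at 0. Adgre1 is near 0 in every group but WT mTEChi (32.2 to 48.1 CPM), and Nfam1 is highest in AireKO mTEChi (52.7 to 74.3 CPM).

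Itgam and Itgax, the integrin alpha chains among the 10 genes, pair with the beta-2 chain, and both were lower in AireKO mTEChi. Itgam (ENSMUSG00000030786, chr7:128062640-128118491, plus strand) was at 2.57, 1.19, 2.33 and 2.03 CPM there, against 8.60, 11.7 and 13.4 CPM (lowest, median and highest) in WT mTEChi, and the groups did not overlap. Its log2 change was -2.40 ± 0.38 (SE). Itgax (ENSMUSG00000030789, chr7:128129547-128150657, plus strand) was at 0, 0, 0.333 and 0.811 CPM in AireKO mTEChi, and at 1.21, 4.37 and 9.55 CPM (lowest, median and highest) in WT mTEChi. With 3 counts in AireKO mTEChi and 99 in WT mTEChi, Itgax was 18.2-fold lower by its counts (exact 95% interval 6.06 to 90.0, counting error only). Itgam shares 3450 of its 5024 exon bases with the gene model Gm49368 on the same strand, which held 2 counts over all libraries. How reads in the shared bases were assigned was not tested, so the level of Itgam is uncertain and may be too low.

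Cd14 (ENSMUSG00000051439, chr18:36725067-36726798, minus strand), the co-receptor that hands bacterial lipopolysaccharide to TLR4, was at 4.71, 6.32, 8.98 and 6.89 CPM in AireKO mTEChi. In WT mTEChi it ranged from 23.9 to 32.5 CPM with a median of 25.5 CPM, again without overlap, and the log2 change was -2.04 ± 0.29 (SE). Unlike Adgre1, it was well counted in mTEClo, with 8.96 ± 5.47 CPM in AireKO and 15.4 ± 6.01 CPM in WT (SD, n = 4 and 8).

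Csf1r (ENSMUSG00000024621, chr18:61100598-61132149, plus strand), the receptor of the growth factors CSF1 and IL-34, was at 23.1, 25.7, 34.3 and 34.5 CPM in AireKO mTEChi, against 35.6, 49.4 and 53.9 CPM (lowest, median and highest) in WT mTEChi. The groups lay close together without overlap, and the log2 change was -0.62 ± 0.21 (SE). Mrc1 (ENSMUSG00000026712, chr2:14229392-14332057, plus strand), the mannose receptor CD206, had the highest level of the 10 genes in every WT mTEChi library, and in AireKO mTEChi it was below Nfam1 in replicates 1 and 2 and above it in replicates 3 and 4. It stood at 48.0, 42.3, 77.2 and 82.7 CPM in AireKO mTEChi and at 92.7, 111 and 146 CPM (lowest, median and highest) in WT mTEChi, with a log2 change of -0.90 ± 0.19 (SE). For both genes the AireKO mTEChi replicates 1 and 2, of 5 weeks, lay below replicates 3 and 4, of 6 weeks. Csf1r shares 873 exon bases with Hmgxb3 on the opposite strand, which held 6782 counts, and the libraries keep no strand, so part of its counts is uncertain.

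Marco (ENSMUSG00000026390, chr1:120474538-120505024, minus strand), a class A scavenger receptor for bacteria and particles, was at 0.857, 1.58, 2.00 and 1.22 CPM in AireKO mTEChi. In WT mTEChi it ran from 8.49 to 14.5 CPM with a median of 10.9 CPM, and the log2 change was -2.81 ± 0.37 (SE). It was close to absent from mTEClo, with 2 counts over the AireKO libraries and 4 over the WT libraries.

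The receptors that mark dendritic cells were rare. Cd209a (ENSMUSG00000031494, chr8:3743397-3748984, minus strand), a mouse relative of the C-type lectin DC-SIGN, had 1 count in AireKO mTEChi against 57 in WT mTEChi, where the libraries ranged from 1.77 to 4.37 CPM. This made it 31.5-fold lower by its counts, with an exact 95% interval of 5.43 to 1266. Clec9a (ENSMUSG00000046080, chr6:129408862-129424763, plus strand), a lectin with which cross-presenting dendritic cells bind dead cells, had 1 count in AireKO mTEChi and 49 in WT mTEChi, at 1.77 to 4.37 CPM there. Its ratio was 27.1-fold lower, with an interval of 4.64 to 1092. In mTEClo Cd209a had 6 counts in AireKO and 7 in WT, and Clec9a had 0 counts in AireKO, which allows up to 0.277 CPM, and 3 in WT. Neither gene passed the filter on low counts, so 8 of the 10 genes entered the fits. Adgre1, Itgax and Marco passed that filter through WT mTEChi alone, where they are highest. Clec9a shares 184 exon bases with its neighbour Clec1b.

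Of the 8 tested genes, 7 passed the threshold as lower and Nfam1 as higher in AireKO mTEChi (edgeR quasi-likelihood test, Benjamini-Hochberg adjusted p under 0.05), beside 29.4% and 23.9% of all 19310 tested genes. The libraries of the genotypes did not overlap for any of the 10 genes, while 20.8% of all tested genes were lower and 16.8% higher without overlap. Since these genes were chosen on that contrast, the counts are a description. Csf1r no longer passed without AireKO mTEChi replicate 1 (log2 change -0.48) or replicate 2 (-0.56). With a term for the 6 libraries without mitochondrial ribosomal RNA counts, an alternative chosen after seeing the data whose estimate rests on AireKO mTEClo, the log2 changes of Itgax (0.59), Csf1r (0.21) and Marco (1.01) changed sign and 4 of the 8 genes passed. In the same fit the change of Aire itself was 0.04.

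Per kilobase of exon, which allows levels to be set side by side, the order in AireKO mTEChi was Mrc1 (9.82 ± 3.20 CPM per kb), Nfam1 (7.48 ± 1.26), Csf1r (5.09 ± 1.01) and Cd14 (3.88 ± 1.02), and the other 6 genes were each under 0.75 CPM per kb (SD, n = 4). In WT mTEChi it was Mrc1 (18.3 ± 2.73 CPM per kb), Cd14 (15.5 ± 2.06), Adgre1 (11.5 ± 1.78), Csf1r (8.07 ± 1.32) and Marco (5.88 ± 1.22), then Itgam, Cd209a, Itgax, Nfam1 and Clec9a at 2.19 CPM per kb and less (SD, n = 7). The ranges of Mrc1 and Nfam1 overlapped in AireKO mTEChi, as did those of Csf1r and Cd14, and the gap between these pairs did not overlap. In WT mTEChi the ranges of Mrc1, Cd14 and Adgre1 overlapped from one to the next, Csf1r lay below Adgre1 without overlap, and Itgax, Nfam1 and Clec9a could not be ordered. The place of Itgam is uncertain in every group, because its level was divided by all 5024 exon bases, of which 3450 are shared with Gm49368. Cd14 led in mTEClo of both genotypes, at 5.17 ± 3.16 CPM per kb in AireKO and 8.88 ± 3.47 in WT, without overlap with Mrc1, which came next at 1.23 ± 0.506 and 1.73 ± 0.475 (SD, n = 4 and 8).

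AireKO against WT in mTEClo used libraries that had no part in the choice of the genes. Nfam1 was higher in AireKO mTEClo, with 2.99 ± 2.28 CPM against 0.723 ± 0.412 CPM in WT mTEClo (SD, n = 4 and 8) and a log2 change of 1.77 ± 0.52 (SE, edgeR adjusted p = 0.014). Itgam was lower, with 1.4 ± 1.36 CPM in AireKO mTEClo against 4.23 ± 1.84 CPM in WT mTEClo and a log2 change of -1.20 ± 0.43 (edgeR adjusted p = 0.042). In both cases the groups overlapped. Thus 1 of 8 genes passed as higher and 1 as lower, beside 12.9% and 8.91% of all tested genes, a share near that background. Neither call was stable to the loss of 1 library. Without AireKO mTEClo replicate 1 the log2 change of Nfam1 was 1.26 (edgeR adjusted p = 0.10), and without replicate 3 it was 1.64 (0.058). The Itgam call was lost without any 1 of 9 libraries (AireKO mTEClo replicates 1, 2 and 3, WT mTEClo replicates 1, 2, 3 and 5, and WT mTEChi replicates 4 and 5), with log2 changes of -1.34 to -0.95. It was lost too with age in the fit, where the log2 change was -0.75 (edgeR adjusted p = 0.48).

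The other 6 tested genes did not pass in mTEClo. Cd14 had a log2 change of -0.70 ± 0.28 (SE, edgeR adjusted p = 0.074), Mrc1 of -0.42 ± 0.28 (0.30) and Csf1r of -0.15 ± 0.33 (0.78). Cd14 passed under some alternatives, without AireKO mTEClo replicate 3 (-1.23, edgeR adjusted p = 0.0049), without WT mTEClo replicate 6 (-0.87, 0.021), in DESeq2 (-0.77, 0.043) and in limma on the deposited normalized values (-0.89, 0.019). The low counts of the rest left wide intervals, with Adgre1 at -0.56 ± 0.87 (0.69), Itgax at -1.18 ± 1.09 (0.47) and Marco at 0.35 ± 1.09 (0.88). The 4 AireKO mTEClo libraries were split by the mitochondrial ribosomal RNA counts, and the split was also one of age and depth. Replicates 1 and 2, which held such RNA counts, were of 5 weeks, with totals of 1883769 and 1639231 counts. Replicates 3 and 4, at 0, were of 6 weeks, with totals of 3272356 and 3938588 counts. These differences cannot be told apart here. Itgam was at 0.545 and 0 CPM in replicates 1 and 2 and at 2.10 and 2.94 CPM in replicates 3 and 4. Cd14 was at 5.45 and 4.98 CPM and at 16.8 and 8.59 CPM. An alternative chosen after seeing the data kept only the 17 libraries with mitochondrial ribosomal RNA counts, and so no library of 6 weeks. The log2 changes in mTEClo were then 2.48 for Nfam1 (edgeR adjusted p = 0.0028), -3.65 for Itgam (0.0061) and -1.58 for Cd14 (0.0063), and no other gene of the 8 passed.

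**Figure D2:**
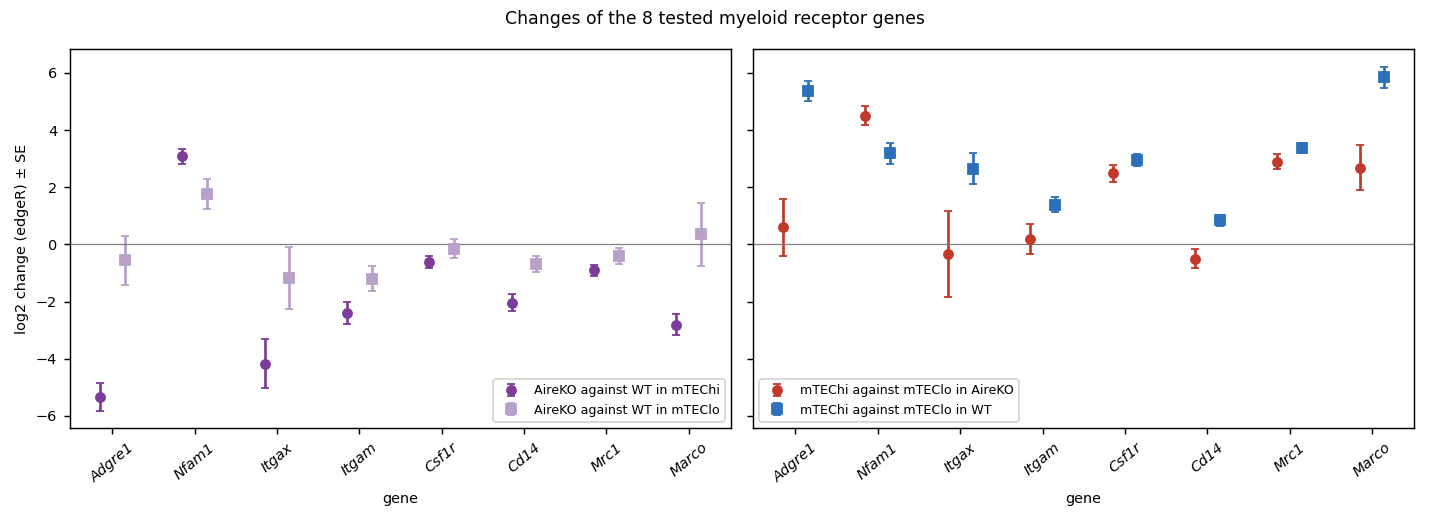
Log2 changes with SE (y axis) of the 8 tested genes (x axis), for AireKO against WT in each gate on the left and for mTEChi against mTEClo in each genotype on the right. Nfam1 lies above 0 in all 4 comparisons, and Adgre1 lies at -5.33 and -0.56 on the left and at 0.60 and 5.38 on the right.

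The gates were then compared within each genotype. These comparisons share the mTEChi libraries with the contrast on which the genes were chosen, so Adgre1 and Nfam1 are described without a test. In AireKO, Csf1r was higher in mTEChi than in mTEClo (log2 change 2.49 ± 0.30, edgeR adjusted p = 2.7e-08), as was Mrc1 (2.90 ± 0.26, 2.0e-10). Marco had 15 counts in AireKO mTEChi and 2 in AireKO mTEClo, a ratio of 7.87 with an exact 95% interval of 1.83 to 70.9 (edgeR adjusted p = 0.0041). Itgam (0.20 ± 0.53), Itgax (-0.34 ± 1.51) and Cd14 (-0.50 ± 0.34) did not pass (edgeR adjusted p = 0.78, 0.87 and 0.22). The log2 change of Nfam1 was 4.5 ± 0.33 and that of Adgre1 0.60 ± 1.00 (SE).

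In WT, Csf1r, Mrc1, Itgam and Cd14 were tested, and these 4 of 4 genes were higher in mTEChi, beside 37.0% of all tested genes. The log2 changes were 3.38 ± 0.17 for Mrc1 (edgeR adjusted p = 8.9e-16), 2.96 ± 0.20 for Csf1r (8.8e-14), 1.39 ± 0.26 for Itgam (1.9e-05) and 0.84 ± 0.20 for Cd14 (4.7e-04). The libraries of the gates overlapped for Cd14 and did not overlap for the other 3, nor for 25.0% of all tested genes as higher in mTEChi. Marco and Itgax entered the fit only because of their level in WT mTEChi, so their values are a description. Marco had 215 counts in WT mTEChi and 4 in WT mTEClo, a ratio of 71.3 (exact 95% interval 27.4 to 264), and Itgax had 99 and 19, a ratio of 6.91 (4.20 to 11.96). Adgre1 and Nfam1 had log2 changes of 5.38 ± 0.35 and 3.18 ± 0.36 (SE).

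In AireKO, 3 of the 6 genes tested passed as higher in mTEChi, beside 27.7% of all tested genes. As lower 0 of the 6 passed in edgeR, beside 29.9% of all tested genes, and 3 of the 6 had an unadjusted p under 0.05, each of them higher. The effect of the genotype differed between the gates for Adgre1 and Cd14, 2 of the 8 genes, as lower in mTEChi, beside 15.5% of all tested genes, and for 0 of the 8 as higher, beside 8.61%. That difference again holds the contrast of the choice and is a description. In WT, Cd209a had 57 counts in mTEChi and 7 in mTEClo, a ratio of 10.8 (exact 95% interval 4.92 to 28.1), and Clec9a had 49 and 3, a ratio of 21.7 (6.99 to 109).

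Sex and age were compared within WT libraries. None of the 8 genes passed for female against male, where 0.0155% of all tested genes passed as higher and 0.0259% as lower, and none had an unadjusted p under 0.05 in edgeR. DESeq2, limma and the other alternatives called 0 of the 8 too. For 5 against 4 weeks, 7 genes were tested and Mrc1 passed as lower, by 0.49 ± 0.11 on the log2 scale (edgeR adjusted p = 0.0088), beside 3.1% of 17188 tested genes, and 3.8% passed as higher. The WT mTEChi libraries of 5 weeks had 92.7 to 120 CPM of Mrc1 and those of 4 weeks 132 and 146 CPM, without overlap. The WT mTEChi libraries of 4 weeks also had the lowest totals of that group, 1602125 and 1655955 counts. Age and depth cannot be told apart there. In WT mTEClo the libraries of 5 weeks had 7.76 to 8.85 CPM and those of 4 weeks 9.36 to 15.5 CPM, again without overlap. With male libraries alone the change was -0.40 and did not pass (edgeR adjusted p = 0.074). Because AireKO libraries were of 5 and 6 weeks and WT libraries of 4 and 5 weeks, age and genotype overlap in part, and with age in the fit the log2 change of Mrc1 between genotypes in mTEChi was -0.87 ± 0.25 (SE).

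The other myeloid genes were read from lists, and each count below stands beside a background of 29.4% of all tested genes that fell and 23.9% that rose in AireKO mTEChi, and of 8.91% that fell and 12.9% that rose in AireKO mTEClo. Genes counted almost only in WT mTEChi, such as Cd163, Cd5l, Fgb, Itgad, Ly6g and Ly6c2, passed the filter on low counts through that group. Such genes enter the counts of genes that fell in AireKO mTEChi and the medians there, and their falls are a description. Of the genes of the lists, Cd68, Cd163, Trem2, Fcgr1, Itgb2, Batf3, Ly75, Cd79a and Cd79b stand in more than 1 list. Among 15 macrophage genes, 12 were tested, and 9 fell and 2 rose in AireKO mTEChi, with a median log2 change of -1.95 beside -0.05 over all tested genes. The haemoglobin scavenger receptor Cd163 was at 0 in AireKO mTEChi and at 10.2 ± 2.30 CPM in WT mTEChi (SD, n = 7), at least 35.4-fold lower with 3 counts over the group as the limit. Cd5l, a secreted macrophage protein, was at 0 and at 9.03 ± 2.23 CPM, at least 32.2-fold lower. In contrast Lyz2, the gene of lysozyme M, rose to 281 ± 17.8 CPM in AireKO mTEChi, against 191 ± 22.98 CPM in WT mTEChi (log2 change 0.54 ± 0.15, edgeR adjusted p = 0.0027). The lysosomal protein gene Cd68 rose as well, with 45.2 ± 8.64 and 22.4 ± 5.20 CPM (0.93 ± 0.15, 9.8e-06). The summed level of the 15 genes was 331 to 388 CPM in AireKO mTEChi and 287 to 351 CPM in WT mTEChi, and Cd163, Vsig4 and Cd5l were at 0 in AireKO mTEChi. Most of that sum came from Lyz2 and Cd68. In mTEClo the median was -0.34. C1qc and Timd4 had 0 counts in AireKO mTEClo and 4 each in WT mTEClo. Their limit of 3 counts lay above the WT level, so no median with limits is given. In AireKO mTEClo 2 macrophage genes rose and 1 fell. Those were Lyz2 (1.4 ± 0.17, edgeR adjusted p = 7.6e-07), Cd68 (1.39 ± 0.17, 8.5e-07) and Trem2, an ITAM-coupled lipid receptor (-2.08 ± 0.27, 2.0e-06).

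Of 12 monocyte and neutrophil genes 8 were tested, and all 8 fell in AireKO mTEChi, beside 29.4% of all tested genes, with a median log2 change of -3.95. Among the 8, Ly6g, Ly6c2 and Csf3r were counted almost only in WT mTEChi and passed the filter through it. This count and median are therefore a description. Ly6g, the neutrophil surface marker, had 1 count in AireKO mTEChi and 56.8 ± 10.8 CPM from 1033 counts in WT mTEChi, a ratio of 571 (exact 95% interval 102 to 22579). Ly6c2, a surface marker of monocytes, had 1 and 313 counts, a ratio of 173 (30.8 to 6856). Plac8 had the highest mean level of the list over all 23 libraries, though not in WT mTEChi, and fell to 4.47 ± 2.10 CPM in AireKO mTEChi, against 29.5 ± 10.9 CPM in WT mTEChi (-2.76 ± 0.27, edgeR adjusted p = 2.7e-09). In AireKO mTEClo 3 of the 8 fell, with a median of -2.14, or -1.52 with genes at 0 set at their limit, and 1 of these was the chemokine receptor gene Ccr2 (-2.51 ± 0.51, edgeR adjusted p = 6.7e-04). Of 15 genes of conventional dendritic cells 14 were tested, and 5 rose and 6 fell in AireKO mTEChi, with a median of -0.19. Ccr7, the homing receptor of mature dendritic cells, rose to 193 ± 16.5 CPM in AireKO mTEChi, against 57.3 ± 12.3 CPM in WT mTEChi (1.77 ± 0.18, edgeR adjusted p = 4.9e-09). Batf3, a transcription factor of cross-presenting dendritic cells, rose, with 24.1 to 53.5 CPM over the AireKO mTEChi libraries, against 6.07 to 10.8 CPM over the WT mTEChi libraries (2.07 ± 0.21, 5.5e-09). In AireKO mTEClo 5 of the 14 rose, and Ccr7 (2.27 ± 0.31), Batf3 (2.89 ± 0.51) and the maturation marker Cd83 were among the 5. Cd83 stood at 6.92 ± 3.28 CPM in AireKO mTEClo and 1.73 ± 0.605 CPM in WT mTEClo (edgeR adjusted p = 6.7e-06). Fscn1, the actin bundler of mature dendritic cells, had the highest mean level of the list over all 23 libraries, at 488 ± 131 CPM in AireKO mTEChi and 291 ± 63.4 CPM in WT mTEChi, and rose in both gates (0.80 ± 0.21 and 0.99 ± 0.24, edgeR adjusted p = 0.0032 and 0.005). Of 8 genes of plasmacytoid dendritic cells 6 were tested, of which 3 fell in AireKO mTEChi (median -0.42) and 2 in AireKO mTEClo (-0.25). Klk1 (-1.97 ± 0.42, edgeR adjusted p = 5.3e-04) and the transcription factor Tcf4 (-0.29 ± 0.08, 0.0027) fell in AireKO mTEChi, Ly6d in AireKO mTEClo (-0.65 ± 0.21, 0.03), and the tetherin gene Bst2 in both (-0.39 ± 0.14 and -0.72 ± 0.12, edgeR adjusted p = 0.016 and 8.2e-05).

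The transcription factors that drive myeloid genes gave a mixed count. Of 14 factors 13 were tested, of which 3 rose and 1 fell in AireKO mTEChi, where 23.9% of all tested genes rose (median log2 change 0.17), and 6 rose in AireKO mTEClo (0.46). The factor that fell was Spi1, the gene of PU.1, with 1.41 ± 0.859 CPM in AireKO mTEChi and 10.1 ± 2.78 CPM in WT mTEChi (SD, n = 4 and 7). Its log2 change of -2.78 ± 0.43 (SE) is a description, because most of its counts were in WT mTEChi. Irf8, a factor of dendritic cells and B cells, rose to 711 ± 69.8 CPM in AireKO mTEChi, against 369 ± 19.7 CPM in WT mTEChi (0.94 ± 0.16, edgeR adjusted p = 3.7e-05).

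Of 19 ligands and signalling partners of the receptors 16 were tested, of which 4 rose and 7 fell in AireKO mTEChi (median -0.39), and 4 rose in AireKO mTEClo (0.29). Itgb2, the beta-2 chain with which Itgam and Itgax form their receptors, was at 1.09 ± 1.076 CPM in AireKO mTEChi, against 12.2 ± 2.20 CPM in WT mTEChi. Its log2 change of -3.36 ± 0.58 (SE) is a description, because most of its counts were in WT mTEChi. Fcer1g, an ITAM adaptor, rose to 43.1 ± 3.99 CPM, against 12.7 ± 3.26 CPM (1.70 ± 0.22, edgeR adjusted p = 3.6e-07). The dendritic cell growth factor Flt3l rose to 105 ± 12.6 CPM, against 38.9 ± 7.61 CPM (1.44 ± 0.14, 2.6e-09). Lbp, which carries lipopolysaccharide to Cd14, fell in AireKO mTEChi (-1.58 ± 0.22, edgeR adjusted p = 6.4e-07) and rose in AireKO mTEClo (0.62 ± 0.13, 9.0e-04), where it did not pass with the 17 libraries alone (0.36, edgeR adjusted p = 0.11). The fibrinogen chain Fgb, a ligand of the Itgam receptor, was at 0 in AireKO mTEChi and at 26.2 ± 7.47 CPM in WT mTEChi, at least 87.5-fold lower. Icam1, a ligand of beta-2 integrins with the highest mean level of the list over all 23 libraries, rose in AireKO mTEChi (0.35 ± 0.12, edgeR adjusted p = 0.017).

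Receptors of the same families gave mixed counts. Of 18 other ITAM-coupled and adhesion receptors 10 were tested, of which 7 fell and 1 rose in AireKO mTEChi, with a median of -2.27 (-2.28 with genes at 0 set at their limit). Adgrg1, an adhesion receptor like Adgre1, fell to 25.0 ± 2.26 CPM, against 55.0 ± 7.83 CPM in WT mTEChi (-1.19 ± 0.14, edgeR adjusted p = 3.0e-08). Cd300lf, a phospholipid receptor, fell (-3.41 ± 0.39, edgeR adjusted p = 3.3e-08), and Cd79b, the ITAM chain of the B cell receptor, rose (0.85 ± 0.17, 8.9e-05). In AireKO mTEClo 2 of the 10 fell and 1 rose, with a median of 0.10. Of 29 other C-type lectin and scavenger receptors 18 were tested, of which 12 fell and 4 rose in AireKO mTEChi, with a median of -2.12 (-1.70 with the limits). Scarb1, a lipoprotein receptor, fell to 3.87 ± 1.23 CPM, against 20.7 ± 4.96 CPM in WT mTEChi (-2.38 ± 0.26, 1.9e-08), and Ly75 (DEC-205), an endocytic receptor, rose to 319 ± 18.7 CPM, against 191 ± 22.2 CPM (0.73 ± 0.11, edgeR adjusted p = 1.8e-06). In AireKO mTEClo 5 of the 18 rose and 2 fell, with a median of -0.28. Clec1b had 0 counts in AireKO mTEClo and 2 in WT mTEClo. Its limit lay above the WT level, so no median with limits is given. Clec4e (Mincle), a receptor of mycobacterial glycolipids, rose to 13.2 ± 3.77 CPM in AireKO mTEClo, against 4.87 ± 1.93 CPM in WT mTEClo (1.68 ± 0.36, edgeR adjusted p = 0.0013), which did not pass with the 17 libraries alone (1.24, 0.065). Of 13 other integrin genes, all tested, 6 fell and 2 rose in AireKO mTEChi (median -0.22), and 3 fell and 2 rose in AireKO mTEClo (-0.07). Itgae, the CD103 chain, fell to 0.794 ± 0.573 CPM in AireKO mTEChi, against 14.2 ± 2.42 CPM in WT mTEChi (-4.14 ± 0.36, edgeR adjusted p = 1.9e-10). Itgb1, the beta-1 chain, fell in both gates (-0.63 ± 0.12 and -0.46 ± 0.11, edgeR adjusted p = 4.1e-05 and 0.004), and Itga6, with the highest mean level of the list over all 23 libraries, fell in AireKO mTEClo (-0.30 ± 0.09, 0.021). Itgad, another partner of the beta-2 chain, was at 0 in AireKO mTEChi and at 13.4 ± 3.91 CPM in WT mTEChi, at least 47.0-fold lower, while Itgal, also a partner of it, rose (0.56 ± 0.15, edgeR adjusted p = 0.0018).

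Genes of CD45+ leukocytes moved in the same libraries. Of 10 leukocyte genes, all tested, 5 rose and 2 fell in AireKO mTEChi (median 0.52), and their summed level was 1571 to 1878 CPM in AireKO mTEChi and 1098 to 1374 CPM in WT mTEChi. The 2 that fell were Ptprc and Itgb2, and Rac2 (1.02 ± 0.13, edgeR adjusted p = 1.5e-07), Laptm5 (0.49 ± 0.10, 2.0e-04), Cd52 (0.80 ± 0.18, 5.9e-04) and the abundant Lcp1 (0.29 ± 0.10, 0.022) were among those that rose. Most of the summed level in mTEChi came from Rac2, Laptm5, Cd52 and Lcp1. In AireKO mTEClo 3 of the 10 rose (0.30), with sums of 608 to 852 CPM in AireKO and 458 to 587 CPM in WT. None of the 10 was at 0 in any group. Of 10 T cell genes 7 were tested, of which 5 fell in AireKO mTEChi, with sums of 45.3 to 57.3 CPM in AireKO mTEChi and 77.2 to 94.99 CPM in WT mTEChi. Of 8 B cell genes 7 were tested, of which 4 rose and 2 fell in AireKO mTEChi, with sums of 233 to 301 CPM in AireKO mTEChi and 128 to 157 CPM in WT mTEChi. The part of leukocytes in the changes of the receptor genes was not tested.

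**Figure D3:**
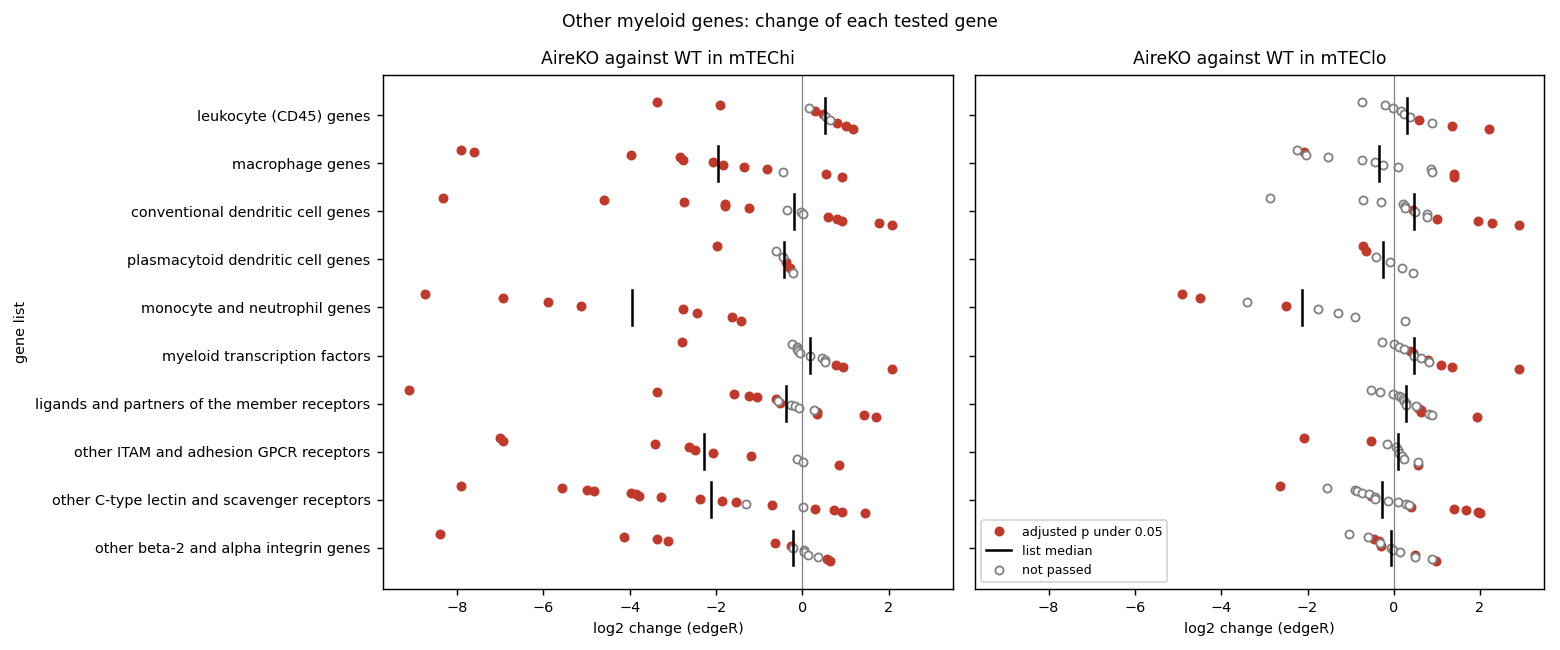
Log2 change (x axis) of each tested gene of 10 lists of myeloid genes (y axis), AireKO against WT, in mTEChi on the left and in mTEClo on the right. Filled points passed the adjusted threshold, lines are list medians, and points of genes at 0 counts in a group are fitted values that depend on the prior. The monocyte and neutrophil list has its median at -3.95 on the left and the leukocyte list at 0.52.

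**Figure D4:**
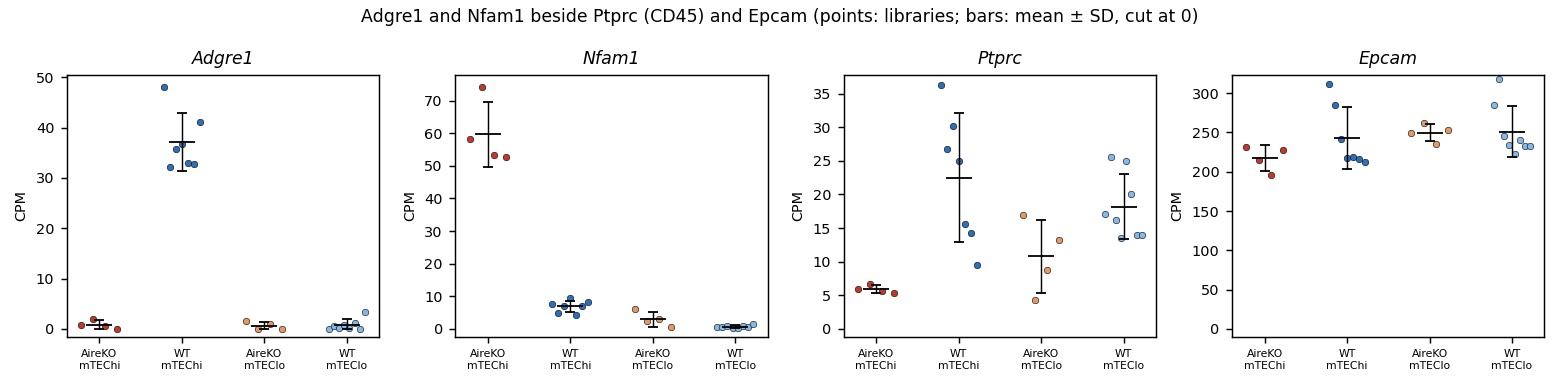
Levels in CPM (y axis, linear) of Adgre1, Nfam1, Ptprc and Epcam in each library of the 4 groups (x axis), with the mean and SD as bars, cut at 0. Ptprc spreads from 9.55 to 36.2 CPM over WT mTEChi, where Adgre1 lies between 32.2 and 48.1 CPM, and Epcam lies between 196 and 318 CPM in all groups.

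Likeness to other genes was measured by Pearson's r of log2 CPM over the 23 libraries, which share their depth and the differences between groups, among 14583 genes. The genes most like Adgre1 were Mixl1 (r = 0.973), Sohlh1 (0.971) and Spink10 (0.970). Those most like Nfam1 were Gga3 (0.982), Pitpnc1 (0.971) and Irf1 (0.970). For the others the most alike were Alx4 for Marco (0.984), Atp6v1b2 for Mrc1 (0.981), Fstl5 for Csf1r (0.970), Hnf4a for Itgam (0.932), Apobec2 for Cd14 (0.922) and Itga7 for Itgax (0.904). None of these 12 genes is in the lists above. Among the 8 tested receptor genes, r was 0.931 between Marco and Adgre1 and 0.925 between Mrc1 and Csf1r, and -0.277 between Cd14 and Nfam1, the lowest of the pairs.

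The genes on either side of Adgre1 and Nfam1 on the chromosome were read as well. Vav1, 30660 bases from Adgre1, and Cntnap5c, 286043 bases from it, did not pass in mTEChi (log2 changes -0.37 ± 0.21 and -0.72 ± 0.42, edgeR adjusted p = 0.13 and 0.15). Tcf20, 5101 bases from Nfam1, rose in AireKO mTEChi, with 346 ± 9.32 CPM against 254 ± 11.6 CPM in WT mTEChi (0.44 ± 0.07, edgeR adjusted p = 5.9e-06). Serhl, 56200 bases from Nfam1, rose as well, with 117 ± 12.3 CPM against 56.8 ± 6.56 CPM (1.05 ± 0.11, edgeR adjusted p = 1.3e-08). Neither passed in mTEClo (-0.04 ± 0.07 and 0.23 ± 0.14, edgeR adjusted p = 0.76 and 0.23).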

How the data were processed

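RNA of sorted mouse thymic epithelial cells was measured by bulk sequencing in 23 libraries, primed with oligo dT and further primers and tagmented without strand, per the labels' protocols. The authors deposited read counts per gene, as whole numbers, and a table of normalized values on a signal scale, both with Ensembl identifiers. The submitters' processing notes name HTSeq 0.11.2 and edgeR with no version, then STAR 2.7.3a and fastp 0.20.0, besides Picard 2.21.1 and SAMtools 1.9, with the builds mm10 and GRCm38. Symbols, positions and exon lengths came from the annotation of that build. The deposited signal values entered only an alternative with limma 3.58.1 on log2(value + 1).

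The counts were fitted with edgeR 4.0.16 in R 4.3.3, with TMM normalization, its filter on low counts by group (minimum count 10; 19310 genes left) and the robust quasi-likelihood test over all 23 libraries, with group and sex as terms. Ages of 5 and 4 weeks were compared in the 15 WT libraries with gate and sex as terms (17188 genes). P-values were adjusted over all tested genes by Benjamini-Hochberg, with 0.05 as the threshold, and the SE is the log2 change divided by the square root of F. Ratios of counts carry exact 95% intervals, and a count of 0 was read as up to 3 counts over its group. Both cover counting error only. Scripts were tested on simulated data.

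The receptor genes and the gene lists were chosen with earlier results of these data known. From each list of myeloid genes up to 2 genes with the smallest p past the threshold for AireKO against WT were picked in each gate. The gene of the highest mean CPM was picked as well. For the lists of other cell types only some of the genes so picked were named. Genes of a list named besides these were chosen after their values were seen. A gene that this rule picked is not reported here. DESeq2 1.42.0, other filters, scalings and covariates, a replicate block and the loss of each library were the alternatives.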

Additional observations from a re-analysis of the deposited data

Results flagged for a closer look

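In 40 combinations of gene and group, 4 held 1 library far from the rest of its group by Dixon's test, which chance gives in about 1 of 20. Adgre1 was at 3.28 CPM in WT mTEClo replicate 8, Itgax at 2.18 CPM in AireKO mTEClo replicate 1, Cd209a at 0.406 CPM in AireKO mTEChi replicate 4 and Clec9a at 0.333 CPM in AireKO mTEChi replicate 3. In the last 3 cases every other library of the group was at 0, so that any count at all would have been picked out, and these 3 say nothing about the library.

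The genotype effect differed between the gates for Adgre1, by -4.78 ± 1.36 on the log2 scale (mTEChi minus mTEClo, SE), and for Cd14, by -1.34 ± 0.40. This difference holds the contrast on which the genes were chosen, and 15.5% of all tested genes had a lower and 8.61% a higher effect in mTEChi. Without AireKO mTEClo replicate 3 the Cd14 difference was -0.79, and the Adgre1 difference was -4.10 without AireKO mTEClo replicate 1 and -4.31 without replicate 3, none of which passed.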

How the results depend on the processing

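Of the comparisons' counts 415 stayed within 1.5 times under an alternative and 27 did not. Of the values of single genes 5890 kept their side of the threshold, 162 no longer passed and 42 newly passed. Of the 5890, 117 changed sign without passing in either fit, Adgre1, Itgax and Csf1r in mTEClo among them. Of the values that passed, 4 changed sign. Those 4 came with a term for the 6 libraries without mitochondrial ribosomal RNA counts, in AireKO against WT in mTEChi: Itgax 0.59, Csf1r 0.21, Marco 1.01 and Aire 0.04. That fit passed 6804 genes instead of 10286 and 4 receptor genes instead of 8. AireKO against WT in mTEClo passed 1544 genes instead of 4212 and 1 receptor gene instead of 2 with age in the fit, and 1 with male libraries alone. With each library left out in turn, 0 to 3 receptor genes passed there. For 5 against 4 weeks, 275 genes passed with male libraries alone and 318 with the replicate block, instead of 1186, and 384 to 1840 with each library left out. The receptor genes that passed, 1 in the main fit, were 2 without the filter, 0 with male libraries alone, 0 with the replicate block and 2 with limma. The difference of the genotype effect between gates passed for 2 receptor genes, for 6 with limma and for 1 to 3 with each library left out. Female against male passed 5 genes instead of 8 with the replicate block. Cd209a and Clec9a enter the counts of receptor genes where the filter lets them in. The cause was not tested for any of these.

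Libraries with the same replicate number did not deviate together throughout (r from -0.192 to 0.201), so the numbers were not taken as pairs. Between the gates in AireKO alone r was 0.098, 0.135, 0.057 and 0.119 for replicates 1 to 4. There replicates 1, 2 and 4 matched their own number best, so a pairing of the AireKO gates remains possible. With the replicate block, AireKO against WT passed 9962 genes and 7 receptor genes in mTEChi, without Csf1r (-0.43), and 4289 genes and 2 receptor genes in mTEClo. Low counts limit Itgax, Marco, Cd209a and Clec9a in several groups and Adgre1 outside WT mTEChi, so a change there was not detectable at this depth unless large.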

Other observations

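Markers of other cell types were counted in the same libraries, AireKO against WT. Of 10 medullary and epithelial genes, all tested, 2 rose and 3 fell in mTEChi (median log2 change 0.01), and 1 rose and 1 fell in mTEClo (0.18). The keratin gene Krt5 fell in mTEChi (-0.86 ± 0.19, edgeR adjusted p = 5.1e-04), and Foxn1, the master factor of thymic epithelium, rose in both gates (0.66 ± 0.20 and 0.69 ± 0.21, edgeR adjusted p = 0.0072 and 0.02), while Cd74, with the highest mean level of them, did not pass in either.

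Of 7 genes of cortical thymic epithelium 2 rose and 3 fell in mTEChi (median 0.15), and 5 rose in mTEClo (0.72), with sums of 645 to 824 CPM in AireKO mTEClo and 473 to 570 CPM in WT mTEClo. Enpep, the gene of Ly51, which the sort selected against, fell to 2.81 ± 1.75 CPM in AireKO mTEChi, against 45.3 ± 9.23 CPM in WT mTEChi (-3.96 ± 0.30, edgeR adjusted p = 1.4e-11). The protease genes Prss16 and Psmb11, known for their role in cortical cells, rose in AireKO mTEClo (1.34 ± 0.16 and 1.85 ± 0.34, edgeR adjusted p = 8.5e-07 and 2.4e-04).

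Of 7 endothelial genes 5 were tested, of which 3 fell in mTEChi (median -0.92) and 2 rose in mTEClo (-0.01). Plvap was at 0.667 ± 0.451 CPM in AireKO mTEChi, against 21.9 ± 7.03 CPM in WT mTEChi. Its log2 change was -4.91 ± 0.42 (SE), given with no test because nearly all its counts were in WT mTEChi. The 2 genes that rose in mTEClo were Tek (0.67 ± 0.19, edgeR adjusted p = 0.012) and Pecam1 (0.79 ± 0.27, 0.032). Neither passed in mTEChi (0.35 ± 0.22 and -0.02 ± 0.19). Of 7 fibroblast genes 4 fell and 1 rose in mTEChi (-2.21), with sums of 188 to 206 CPM in AireKO mTEChi and 201 to 367 CPM in WT mTEChi, and 2 rose in mTEClo (0.65). Col1a1 was at 0.885 ± 0.419 CPM in AireKO mTEChi, against 115.5 ± 46.8 CPM in WT mTEChi. Its log2 change was -6.84 ± 0.70 (SE), given with no test because most of its counts were in WT mTEChi. The gene that rose in mTEChi was Dcn (1.32 ± 0.28, edgeR adjusted p = 4.9e-04). The 2 that rose in mTEClo were Col3a1 (2.06 ± 0.35, edgeR adjusted p = 1.7e-04) and Pdgfrb (0.75 ± 0.19, 0.0046).

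In mTEClo, 1 of the 7 tested T cell genes fell (median -0.38), the recombinase gene Rag1 (-2.34 ± 0.65, edgeR adjusted p = 0.01), and 4 of the 7 tested B cell genes rose (0.99). The medians in mTEChi were -1.39 and 0.75. The B cell kinase gene Blk rose to 84.8 ± 21.0 CPM in AireKO mTEChi, against 18.9 ± 2.80 CPM in WT mTEChi (2.16 ± 0.17, edgeR adjusted p = 3.9e-11). Cd22, a B cell receptor, was at 1.16 ± 0.555 CPM in AireKO mTEChi, against 12.98 ± 4.01 CPM in WT mTEChi. Its log2 change was -3.53 ± 0.41 (SE), given with no test because nearly all its counts were in WT mTEChi.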
